A study of Mus musculus with 11 samples.

Results

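The enzymes of xenobiotic metabolism examined here were the cytochrome P450 families Cyp1 to Cyp4, the glutathione transferases, the flavin-containing monooxygenases, the UDP-glucuronosyltransferases and the sulfotransferases, in fibroblasts sorted from mouse skin. Members were taken by gene symbol and then selected on their measured level, an RPKM (read count scaled by transcript length and by the mapped total of the library) of at least 1 in at least 2 of the 11 libraries. Of 47643 gene symbols in the table, 140 carried such a name and 42 of these passed the level rule. They were 16 of 75 P450 genes, 17 of 21 glutathione transferases, 3 of 7 flavin-containing monooxygenases, 3 of 19 glucuronosyltransferases and 3 of 18 sulfotransferases. The other 98 stayed below it, 43 of them at 0 in every library, and no Ugt2, Sult3 or Sult4 gene passed. The rule used the RPKM levels, so the levels given below describe how the members were chosen, and 27 members reached the level in 2 libraries of each tissue, 14 only in normal skin and 1, Gsto2, only in wounds. A member that passed through the tissue where it is high had to differ between tissues, so the wound differences of these 15 are given as a description, with no test. By the second highest RPKM, the members just inside the rule were Cyp2c44 at 1.03, Cyp3a13 at 1.44 and Gsta1 at 1.46, and those just outside were Cyp1a1 at 0.962, Ugt1a9 at 0.784 and Ugt1a10 at 0.730. Next below came Gstm6, Ugt1a8, Ugt1a5, Gsta3, Ugt1a2 and Cyp2j8, at 0.711 down to 0.601.

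Xenobiotic metabolism is conventionally described in phases. Phase I enzymes, mainly P450s and flavin-containing monooxygenases of the endoplasmic reticulum, add or expose a reactive group by oxidation, with electrons that P450s receive from the reductase Por. Phase II enzymes then join the product to glutathione (glutathione transferases), glucuronic acid (glucuronosyltransferases) or sulfate (sulfotransferases), and transporters of the Abcc family export the conjugates. Many of the same enzymes also act on endogenous lipids, steroids, retinoids and bilirubin, and several are well known from the epidermis and its appendages. The aryl hydrocarbon receptor Ahr and the redox sensor Nfe2l2 are the textbook regulators of several of these genes.

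The cells came from female mice of 9 to 12 weeks on a mixed background, 50% CD-1 and 50% C57Bl/6, that were either wild-type (WT) or carried INHBA, which encodes the activin A subunit, under the keratin 14 promoter (Act), a promoter of basal keratinocytes, whereas the sequenced cells were sorted fibroblasts. Fibroblasts were live CD140a-positive, CD45-negative cells, with CD3, CD11b and F4/80 as further negative markers, from unwounded normal skin (NS) or from excisional wounds at day 5 (5dw), and each library pooled the RNA of 3 animals. There were 3 libraries each of WT NS, Act NS and WT 5dw, and 2 of Act 5dw, numbered 1 and 3, since the authors had excluded the other at quality control. The design asks how the members differed between wound and normal skin fibroblasts in each genotype, between Act and WT within each tissue, and whether the wound change differed with genotype. Libraries were prepared from 100 ng of RNA for NS and 200 ng for 5dw, an amount that cannot be told apart from the tissue.

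Mapped reads ranged from 18649321 to 39702138 per library and were highest in WT 5dw, from 38740404 upwards. Fold changes below are log2 differences of log2(RPKM + 0.5) from limma with its standard error (SE), which understate the change of low genes, and a gene was called at an adjusted p under 0.05 over 11979 genes tested. Over all genes tested, the median log2FC was -0.40 in WT and -0.31 in Act for 5dw against NS, and after median-ratio scaling, which sets the typical gene to no change, it was -0.0043 and 0.0019. The labelled cell type was checked against 12 fibroblast markers, whose summed RPKM was 14040 to 19830 in NS and 24530 to 27850 in 5dw. The sum follows the collagens, such as Col1a1 at 2092 to 4709 in NS and 7761 to 10280 in 5dw. The median of the 12 went the other way, at 853.9 to 1185 in NS and 473.2 to 711.4 in 5dw. Of the 12, 3 rose and 5 fell in WT, and 3 rose and 4 fell in Act. Pdgfra, which encodes the sort marker CD140a, read 49.8 to 65.3 in NS and 29.6 to 37.3 in 5dw. Keratinocyte and sebaceous gland markers were also read, above all in NS. The summed RPKM of 15 keratinocyte markers was 1029 to 1914 in WT NS, 1098 to 4048 in Act NS, 158 to 1397 in WT 5dw and 357 to 427 in Act 5dw, with none of the 15 at 0 in any library, and 12 of the 15 fell in each genotype while 1 rose in WT. The summed RPKM of 8 sebaceous gland markers was 47.7 to 198.5 in NS and 9.92 to 12.3 in 5dw, and the part of these cells in the wound changes of the members was not tested. The summed immune markers never exceeded 1.95, and 7 macrophage markers summed to 9.73 to 16.6. Neutrophil markers summed to 0.340 to 1.13 in NS and 3.10 to 21.6 in 5dw, and Schwann cell markers to 4.80 to 10.1 in NS and 0.705 to 0.969 in 5dw. The neutrophil sum in 5dw was mainly S100a8 and S100a9, at 5.09 and 16.2 in WT 5dw 3, where it was highest. Csf3r, Mpo and Elane never exceeded 0.206, and Ly6g was read only in WT 5dw 2, at 0.0548. The sum alone thus does not show neutrophils in the wound libraries. In bulk RNA, fewer cells of a type and less RNA per cell cannot be told apart.

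The promoter windows of 7 members are shown as examples, among them the P450 and the glutathione transferase with the highest levels in normal skin and members that rose. Not all 7 had a firm wound change, as Cyp1b1 was not called in WT and both Gstm5 calls ended with median-ratio scaling. Each window runs from 250 bases before to 50 bases after the annotated start, in the gene's direction, from RefSeq on GRCm38.p6. The windows are chr17:79715012-79715311 on the minus strand for Cyp1b1, chr7:27119705-27120004 on the plus strand for Cyp2f2, chr4:115647672-115647971 on the minus strand for Cyp4b1, chr3:108017924-108018223 on the minus strand for Gstm1, chr3:107895604-107895903 on the plus strand for Gstm5, chr19:47854723-47855022 on the plus strand for Gsto1 and chr1:88094751-88095050 on the plus strand for Ugt1a7c. Capitals mark GCGTG, the core of the aryl hydrocarbon receptor site, or TGACNNNGC, the core of the antioxidant response element, on either strand.
Cyp1b1: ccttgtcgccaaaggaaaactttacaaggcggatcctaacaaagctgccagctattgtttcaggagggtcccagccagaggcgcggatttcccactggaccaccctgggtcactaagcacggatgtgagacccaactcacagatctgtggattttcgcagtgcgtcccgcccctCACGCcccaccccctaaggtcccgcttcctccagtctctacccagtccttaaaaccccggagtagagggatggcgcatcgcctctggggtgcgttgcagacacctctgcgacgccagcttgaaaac
Cyp2f2: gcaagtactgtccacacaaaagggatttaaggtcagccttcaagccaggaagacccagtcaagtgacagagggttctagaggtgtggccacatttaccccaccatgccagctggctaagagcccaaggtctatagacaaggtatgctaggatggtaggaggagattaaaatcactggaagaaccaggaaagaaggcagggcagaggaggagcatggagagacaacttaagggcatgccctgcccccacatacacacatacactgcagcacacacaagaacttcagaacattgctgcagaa
Cyp4b1: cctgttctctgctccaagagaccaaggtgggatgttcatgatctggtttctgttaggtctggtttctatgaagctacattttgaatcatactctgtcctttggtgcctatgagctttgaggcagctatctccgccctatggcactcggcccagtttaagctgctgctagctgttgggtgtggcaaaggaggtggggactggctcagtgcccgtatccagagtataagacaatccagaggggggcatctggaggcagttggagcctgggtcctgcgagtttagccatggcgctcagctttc
Gstm1: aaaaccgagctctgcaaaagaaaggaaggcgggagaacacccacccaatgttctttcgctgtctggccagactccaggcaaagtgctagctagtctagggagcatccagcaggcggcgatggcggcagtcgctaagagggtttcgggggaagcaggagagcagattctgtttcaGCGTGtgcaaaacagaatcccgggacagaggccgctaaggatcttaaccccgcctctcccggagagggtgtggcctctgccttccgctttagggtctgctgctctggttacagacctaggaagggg
Gstm5: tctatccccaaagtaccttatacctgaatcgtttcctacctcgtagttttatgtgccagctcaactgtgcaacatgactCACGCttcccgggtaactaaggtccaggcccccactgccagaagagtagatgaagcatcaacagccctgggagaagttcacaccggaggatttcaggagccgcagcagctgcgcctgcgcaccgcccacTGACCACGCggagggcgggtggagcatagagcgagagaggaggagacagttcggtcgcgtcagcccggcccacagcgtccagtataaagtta
Gsto1: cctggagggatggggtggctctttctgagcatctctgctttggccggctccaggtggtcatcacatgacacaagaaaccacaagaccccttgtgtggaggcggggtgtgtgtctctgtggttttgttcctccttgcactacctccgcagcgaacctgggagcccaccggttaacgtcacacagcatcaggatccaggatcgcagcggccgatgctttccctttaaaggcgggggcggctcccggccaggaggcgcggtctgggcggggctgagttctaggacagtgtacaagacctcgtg
Ugt1a7c: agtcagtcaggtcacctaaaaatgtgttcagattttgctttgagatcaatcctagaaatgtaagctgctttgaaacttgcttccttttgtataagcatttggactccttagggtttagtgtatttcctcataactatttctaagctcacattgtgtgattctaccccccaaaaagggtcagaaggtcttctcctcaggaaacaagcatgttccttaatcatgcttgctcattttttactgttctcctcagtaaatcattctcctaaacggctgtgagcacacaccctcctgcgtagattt

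Cyp1b1 and Gstm1 each held GCGTG once in the window shown, 76 bases before the start. Gstm5 held GCGTG 171 and 38 bases before the start and TGACNNNGC 42 bases before it, and the last 2 of these matches overlap. The windows of Cyp2f2, Cyp4b1, Gsto1 and Ugt1a7c held neither. Of 42 members, 34 matched a RefSeq promoter entry, and those without were Gsta4, Cyp2d22, Ugt1a6b, Cyp2c44, Cyp4f17, Fmo1, Cyp2g1 and Gstt2. GCGTG was found for 12 of the 34 (35.3%), against 35.2% of 27025 genes with a window, and TGACNNNGC for 4 of the 34 (11.8%; Cyp2j6, Cyp4f39, Gstm5 and Gstm7), against 14.0%. A match describes the sequence only.

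By position, many members sit in clusters of like genes (GENCODE M21 on GRCm38, all protein coding where listed). Gstm5, Gstm7, Gstm2, Gstm1 and Gstm4 follow one another on chromosome 3, with 22434 to 49884 bases between neighbours, and Gstm1 itself lies at chr3:108012255-108017973. Gsto1 (chr19:47854970-47864790) and Gsto2 are 743 bases apart, Gstp1 and Gstp2 2299, and Gstt3 and Gstt1 2398. Cyp2b19, Cyp2g1 and Cyp2f2 (chr7:27119909-27133660) share a stretch of chromosome 7, and Cyp1b1 lies at chr17:79701537-79715061 and Cyp4b1 at chr4:115624725-115647723. The 3 Ugt1a members overlap on chromosome 1, where Ugt1a7c spans chr1:88095062-88220002, and share their last exons. The sources used here do not say how reads from shared sequence were assigned, which leaves the split between near copies uncertain. The share of a member's 31-base sequences found in another gene was 92.9% for Gsta1, 84.2% for Ugt1a6b, 60.7% for Gsta2, 60.3% for Gstp2, 58.5% for Ugt1a1, 55.7% for Ugt1a7c, 38.5% for Gstp1 and 28.8% for Gstm1, and 0 for Cyp1b1, Cyp2f2, Gsto1 and Gsto2. Gsto1 and Gsto2 lie inside Cfap43 on the opposite strand, Gstz1, Sult1a1, Sult2b1, Sult5a1, Cyp2f2, Gstm5 and the 3 Ugt1a members also overlap a gene on the other strand, and the use of strand in counting is not stated.

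In levels, which RPKM puts per length and so allows between genes, single members held large shares of their family's sum. Cyp2f2 made up 56.2% of the summed RPKM of the 16 P450 members over the NS libraries, from 43.1% in Act NS 2 to 68.7% in Act NS 1, and Gstm1 with 32.8% and Gstp1 with 25.4% led the glutathione transferases. In 5dw, Cyp1b1 held 41.3% of the P450 sum, against 7.97% in NS, Gstp1 held 37.7% of the glutathione transferase sum and Gsto1 12.5%, while Gstm1 held 9.01%. Summed over each family, the 16 P450 members reached 268.2 to 388.3 in WT NS, 232.7 to 354.8 in Act NS, 45.2 to 54.4 in WT 5dw and 46.0 to 48.3 in Act 5dw. The glutathione transferase sum was 401.1 to 456.7, 401.3 to 469.8, 263.8 to 265 and 231.8 to 246.4 in the same order, and the sulfotransferase sum 11.8 to 15.9, 11.3 to 21.5, 2.07 to 3.26 and 2.74 to 2.87. The flavin-containing monooxygenase sum was 17.9 to 19.2, 14.4 to 28.2, 8.76 to 10.4 and 9.47 to 13.3. These sums are descriptions, because 7 of the 16 P450, 4 of the 17 glutathione transferase, 1 of the 3 monooxygenase, 2 of the 3 sulfotransferase and 1 of the 3 glucuronosyltransferase members reached the level in 1 tissue alone. Over the other members, the P450 sum was 195.9 to 344.1 in NS and 43.9 to 51.9 in 5dw, and the glutathione transferase sum 393.3 to 464.0 and 229.4 to 262.2. The monooxygenase sum over those members overlapped between tissues, at 12.0 to 25.5 in NS and 8.27 to 12.2 in 5dw. The glucuronosyltransferase sum overlapped as well, at 17.5 to 35.5 in NS and 16.9 to 25.6 in 5dw over all 3 members, while its largest member changed from Ugt1a6b to Ugt1a7c, whose share was 12.1% in NS and 59.7% in 5dw.

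**Figure D1:**
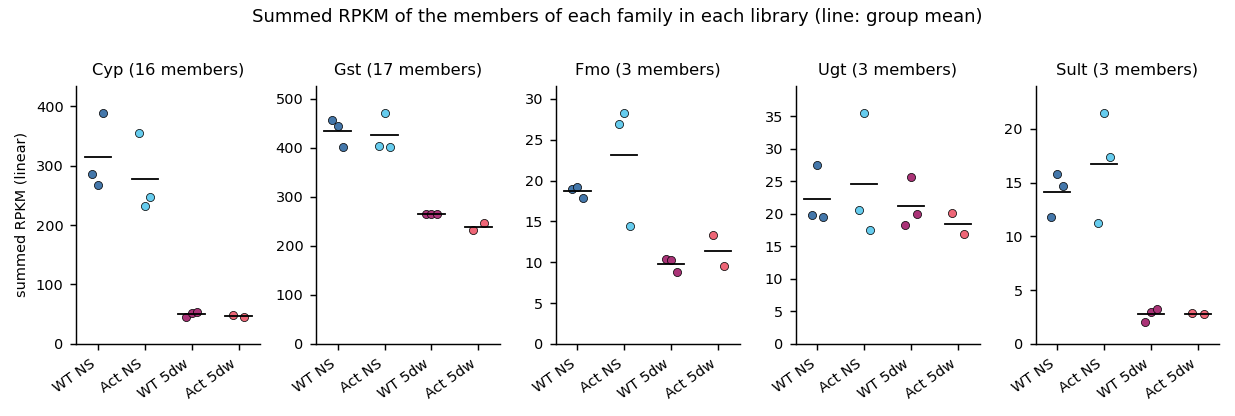
Summed RPKM of the members of each enzyme family (vertical axes, linear, from 0) in each library, with 1 point per library and a line at the group mean for WT NS, Act NS, WT 5dw and Act 5dw. The P450 sum was 232.7 to 388.3 in NS and 45.2 to 54.4 in 5dw, while the glucuronosyltransferase sums of the tissues overlap.

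In WT, 3 of 42 members were higher and 29 lower in 5dw than in NS, beside 9.45% and 48.8% of all genes tested, and nothing is read from these counts because 15 members passed the level rule through 1 tissue. Among the 27 members at the level in both tissues, 2 rose (Gsto1 and Ugt1a7c) and 16 fell, against 8.60% and 45.1% of the 9878 genes that met the same condition. Their median log2FC was -0.71, against -0.35 for those genes. With median-ratio scaling, 6 of the 27 were higher and 10 lower, beside 23.9% and 16.8%, and the medians were -0.34 and 0.06. In Act, 3 of 42 were higher and 28 lower, beside 9.04% and 36.5%, and of the 27, 2 rose (again Gsto1 and Ugt1a7c) and 15 fell, beside 8.47% and 32.5%. Their median was -0.70 against -0.26, and median-ratio scaling gave 4 higher and 9 lower, beside 21.1% and 15.6%, with medians of -0.37 and 0.06. Of the 16 members that fell in WT and the 15 that fell in Act, 14 were shared: Cyp2d22, Cyp2f2, Cyp2j6, Cyp4b1, Cyp4f13, Fmo2, Gstk1, Gstm1, Gstm5, Gstp2, Gstt1, Gstt2, Gstt3 and Sult5a1. These are 87.5% of the WT members and 93.3% of the Act members that fell, and of the 9878 genes 30.1% fell in both genotypes, which is 66.8% of those lower in WT and 92.6% of those lower in Act. The 2 wound comparisons share no library. In Act the count that rose depended on the libraries, as the call of Ugt1a7c ended without Act NS 1 (adjusted p = 0.0684). Gsto2, also higher in Act, passed the level rule only through 5dw, so its call is not read as a test.

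**Figure D2:**
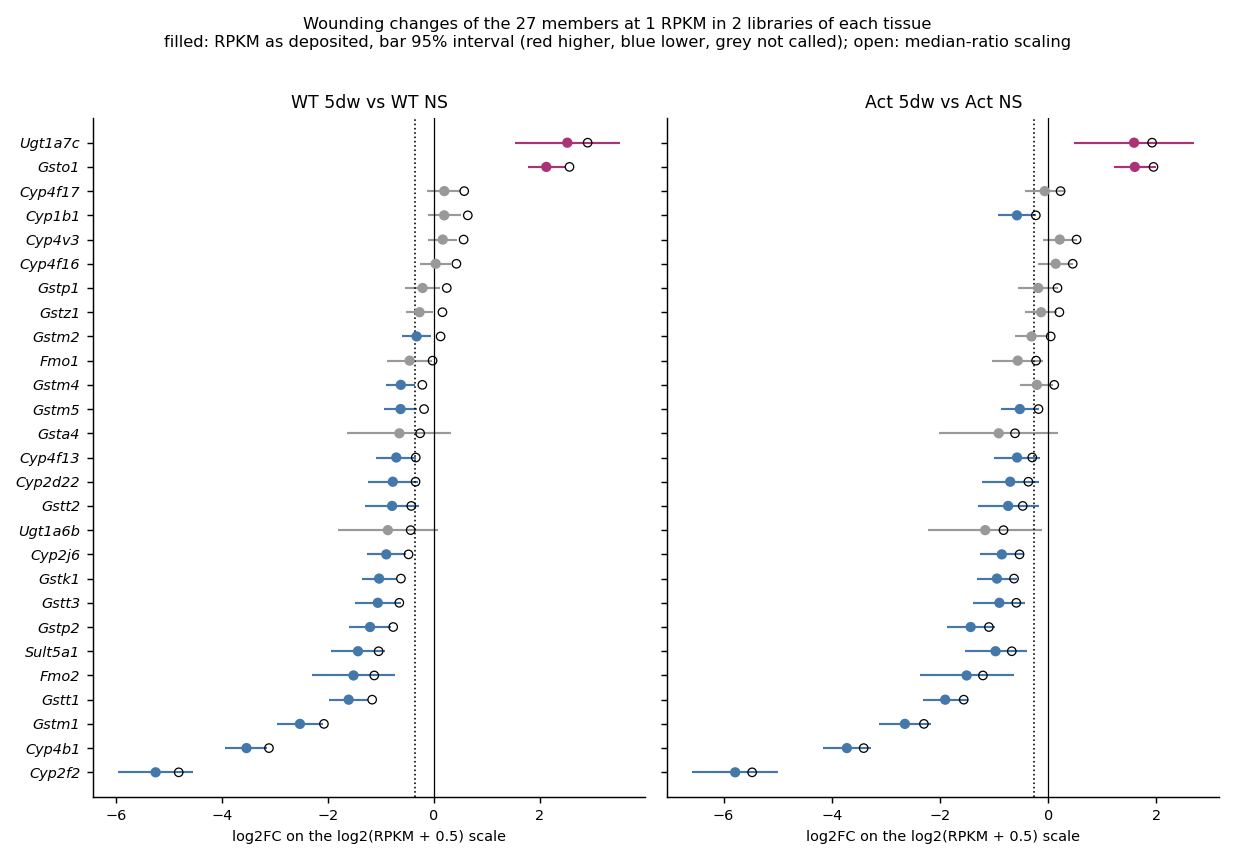
Log2FC of 5dw against NS in WT (left) and Act (right) for the 27 members at the level in both tissues, in order of the WT value, with the RPKM as deposited as filled points with 95% intervals (red higher, blue lower, grey not called) and with median-ratio scaling as open points. The dotted line is the median of the 9878 genes at the level in both tissues, and Cyp2f2, Cyp4b1 and Gstm1 lie at -2.53 or below in both panels while Gsto1 and Ugt1a7c lie above 0.

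Among the phase I genes, 5 of the 9 P450 members at the level in both tissues fell in WT and 6 in Act, and none rose, beside the 45.1% and 32.5% lower of all genes at that level. With median-ratio scaling 3 of the 9 were lower in each genotype, and 4 were higher in WT and 2 in Act. Of all genes at that level, 16.8% were then lower in WT and 15.6% in Act, and 23.9% and 21.1% higher. Cyp2f2, the P450 best known for oxidising naphthalene in airway club cells, had the highest P450 level of normal skin fibroblasts. Unwounded WT libraries read 159.9, 123 and 239 RPKM and unwounded Act libraries 244, 100.3 and 132. Wound values were 3.77, 3.71 and 4.28 for WT, then 2.86 and 1.66 for Act, so every NS library stood far above every wound library. The change was log2FC -5.25 ± 0.32 (SE) in WT (adjusted p = 1.20e-06) and -5.78 ± 0.36 (SE) in Act (adjusted p = 2.36e-06). Cyp4b1, which oxidises fatty acids and activates some plant and chemical toxins, was also lower in wounds. It read 41.1, 29.4 and 40.9 in WT NS, 38.7, 28.7 and 32.2 in Act NS, 2.11, 3.24 and 2.88 in WT 5dw, with 1.90 and 2.18 in Act 5dw. The difference was log2FC -3.54 ± 0.18 (SE) in WT (adjusted p = 5.05e-07) and -3.72 ± 0.20 (SE) in Act (adjusted p = 1.15e-06), and the tissues did not overlap.

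Cyp2j6, a P450 of the arachidonic acid epoxygenase family, read 6.82 to 9.61 in the 6 NS libraries and 3.71 to 5.16 in the 5 wound libraries. Its log2FC was -0.90 in WT (adjusted p = 0.00108) and -0.86 in Act (adjusted p = 0.00365), and the Act call ended without Act 5dw 3 (adjusted p = 0.0517). Cyp2d22, of the family that holds the human debrisoquine hydroxylase, and Cyp4f13, a fatty acid hydroxylase, showed smaller differences that did not outlast rescaling. For Cyp2d22 the log2FC was -0.77 in WT and -0.70 in Act, and with median-ratio scaling it was -0.34 (adjusted p = 0.271) and -0.37 (adjusted p = 0.305). For Cyp4f13 these were -0.71 and -0.58, then -0.34 (adjusted p = 0.119) and -0.30 (adjusted p = 0.227). In Act, the call of Cyp2d22 ended without Act NS 1 (adjusted p = 0.0789), Act NS 2 (adjusted p = 0.1003), Act 5dw 1 (adjusted p = 0.131) or Act 5dw 3 (adjusted p = 0.111), and that of Cyp4f13 without Act NS 2 (adjusted p = 0.0848) or Act 5dw 1 (adjusted p = 0.211).

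Cyp1b1, a P450 inducible through Ahr that oxidises oestradiol and polycyclic hydrocarbons, overlapped between tissues in WT. Its RPKM was 17.7, 19.3 and 17.5 in WT NS and 17.8, 22.4 and 22.6 in WT 5dw, ranges that overlap, with log2FC 0.20 ± 0.14 (SE), adjusted p = 0.256. With median-ratio scaling the WT difference was 0.64 (adjusted p = 0.00903), a call towards higher. In Act the values were 31.02, 32.3 and 23.9 in NS and 19.6 and 18.7 in 5dw, with log2FC -0.58 ± 0.16 (SE), adjusted p = 0.0128, but the call ended without Act 5dw 1 (adjusted p = 0.0502) or Act 5dw 3 (adjusted p = 0.0783) and with median-ratio scaling at -0.23 (adjusted p = 0.339). Cyp4f16, Cyp4f17 and Cyp4v3, fatty acid omega-hydroxylases, passed no wound test in either genotype, with log2FC from -0.07 to 0.21. Their levels were low throughout, 2.71 to 3.88 for Cyp4f16, 1.96 to 3.09 for Cyp4f17 and 2.61 to 3.79 for Cyp4v3. After median-ratio scaling all 3 were called higher in WT, and Cyp4f16 and Cyp4v3 in Act.

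The flavin-containing monooxygenases oxidise nitrogen and sulfur in drugs and in endogenous amines. Fmo2 read 5.12, 7.06 and 5.30 in WT NS and 1.72, 1.69 and 1.66 in WT 5dw. It read 9.59, 10.8 and 3.01 in Act NS, where 1 library stood well below the others, and 2.43 and 1.79 in Act 5dw. Fmo2 fell in both genotypes, with log2FC -1.52 ± 0.35 (SE) in WT (adjusted p = 0.00406) and -1.51 ± 0.39 (SE) in Act (adjusted p = 0.00994), and the Act call ended without Act 5dw 3 (adjusted p = 0.0807). Quantile normalization ended both calls, at -1.04 in WT (adjusted p = 0.0661) and -1.15 in Act (adjusted p = 0.0719). Fmo1 was the highest of the 3, at 9.01 to 14.9 in NS and 6.61 to 9.78 in 5dw. Its log2FC was -0.46 in WT (adjusted p = 0.0593) and -0.56 in Act (adjusted p = 0.0503), and with a replicate block the adjusted p was 0.0225 and 0.0281. Fmo5 reached the level only in NS, at 2.07 to 2.87, and read 0.486 to 1.07 in 5dw. Its difference was log2FC -1.37 ± 0.17 (SE) in WT and -1.18 ± 0.19 (SE) in Act.

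Among the phase II genes, 9 of the 13 glutathione transferase members at the level in both tissues fell in WT and 7 in Act, beside the same 45.1% and 32.5%, and 1, Gsto1, rose in each. With median-ratio scaling 5 of the 13 were lower in WT and 4 in Act, beside 16.8% and 15.6% of all genes at that level. Gsto1 alone was higher, beside 23.9% and 21.1%. Gstm1, a mu class enzyme and one of the main cytosolic glutathione transferases, read 162, 138 and 111 in WT NS and 153, 169 and 112 in Act NS. In wounds it read 21.5, 26.4 and 21.7 in WT, with 25.5 and 19.5 in Act. The change was log2FC -2.53 ± 0.20 (SE) in WT (adjusted p = 5.15e-06) and -2.65 ± 0.22 (SE) in Act (adjusted p = 1.32e-05), with no overlap of tissues. Its neighbours in the cluster had smaller log2FC. Gstm5 read 14.5 to 22.3 in NS and 11.1 to 13.5 in 5dw, with a log2FC of -0.63 in WT (adjusted p = 0.00356) and -0.53 in Act (adjusted p = 0.0203), and median-ratio scaling ended both calls at -0.18 (adjusted p = 0.227) and -0.18 (adjusted p = 0.301). The Act call of Gstm5 also ended without Act NS 2 (adjusted p = 0.0578), Act NS 3 (adjusted p = 0.0666) or Act 5dw 3 (adjusted p = 0.157). Gstm4, at 4.13 to 5.64 in NS and 3.07 to 4.30 in 5dw, fell in WT (log2FC -0.62 ± 0.12 (SE), adjusted p = 0.00162), a call that median-ratio scaling ended at -0.22 (adjusted p = 0.237), and its log2FC in Act was -0.21 (adjusted p = 0.235). Gstm7, which reached the level only in NS, read 1.41 to 2.44 there and 0.244 to 0.387 in 5dw, a difference of log2FC -1.46 ± 0.19 (SE) in WT and -1.52 ± 0.22 (SE) in Act.

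Gstm2 had the smallest called difference of the cluster. It read 65.8, 64.6 and 62.2 in WT NS, 52.9, 52.4 and 48.2 in WT 5dw, 55.2, 73.5 and 61.0 in Act NS and 52.1 and 49.2 in Act 5dw. The WT difference was log2FC -0.33 ± 0.13 (SE), adjusted p = 0.0449, it turned to 0.13 (adjusted p = 0.356) with median-ratio scaling, and it was not called in 9 of the fits that left out 1 library, with adjusted p from 0.0562 to 0.148. In Act it was log2FC -0.31 ± 0.14 (SE), adjusted p = 0.0958. Gstp1, the pi class enzyme often raised in tumours, read 78.9 to 124 across all 11 libraries. Its log2FC was -0.21 in WT (95% interval -0.54 to 0.12) and -0.18 in Act (95% interval -0.55 to 0.18). Gstp2, its neighbour and near copy, read 13.7 to 20.9 in NS and 5.50 to 7.80 in 5dw and fell, with log2FC -1.20 ± 0.18 (SE) in WT (adjusted p = 3.01e-04) and -1.43 ± 0.20 (SE) in Act (adjusted p = 3.17e-04). Gstz1, the maleylacetoacetate isomerase of tyrosine breakdown, passed neither wound test, at 7.36 to 10.8 over all libraries and a log2FC of -0.27 in WT and -0.13 in Act.

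The 3 theta members and the kappa member fell in both genotypes. Gstt1, which conjugates small halogenated compounds, read 33.7, 31.4 and 28.3 in WT NS and 32.5, 40.1 and 27.01 in Act NS. In wounds it read 9.59, 12.0 and 8.30 in WT, with 8.29 and 8.504 in Act, a change of log2FC -1.61 ± 0.17 (SE) in WT (adjusted p = 3.43e-05) and -1.90 ± 0.19 (SE) in Act (adjusted p = 3.84e-05). Gstt3, at 4.29 to 8.77 in NS and 2.53 to 2.92 in 5dw, fell with log2FC -1.06 ± 0.20 (SE) in WT (adjusted p = 0.00108) and -0.90 ± 0.22 (SE) in Act (adjusted p = 0.00664), and median-ratio scaling ended the Act call at -0.59 (adjusted p = 0.0526). Gstt2, at 1.87 to 4.02 and 0.940 to 1.71, had log2FC of -0.79 and -0.74, which median-ratio scaling brought to -0.43 (adjusted p = 0.184) and -0.47 (adjusted p = 0.197). The Act call of Gstt2 ended without Act NS 1 (adjusted p = 0.0641), Act NS 2 (adjusted p = 0.0943) or Act 5dw 3 (adjusted p = 0.302). Gstk1, the mitochondrial and peroxisomal kappa enzyme, read 5.12 to 7.56 in NS and 2.82 to 3.51 in 5dw, a change of log2FC -1.03 ± 0.15 (SE) in WT (adjusted p = 2.59e-04) and -0.95 ± 0.17 (SE) in Act (adjusted p = 0.00124).

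Both omega class members were higher in wounds. Gsto1, a thiol transferase that also reduces dehydroascorbate and methylated arsenic, read 7.27, 10.1 and 6.67 in WT NS and 7.69, 7.76 and 8.63 in Act NS. In wounds it read 33.7, 33.2 and 41.8 in WT, with 25.2 and 25.3 in Act, above every NS library. Gsto1 rose in both genotypes, with log2FC 2.12 ± 0.16 (SE) in WT (adjusted p = 3.91e-06) and 1.60 ± 0.17 (SE) in Act (adjusted p = 6.81e-05). Gsto2, the second omega enzyme and a dehydroascorbate reductase, was the 1 member that reached the level only in 5dw. Its values were 0.537, 0.864 and 0.369 in WT NS and 0.808, 0.963 and 0.674 in Act NS, against 2.22, 1.90 and 2.26 in WT 5dw, with 1.76 and 1.51 in Act 5dw, without overlap. The difference was log2FC 1.29 ± 0.17 (SE) in WT and 0.70 ± 0.20 (SE) in Act, untested since wounds chose it.

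Of the 3 Ugt1a members, whose sequence is largely shared, Ugt1a7c rose, Ugt1a6b was not called and Ugt1a1 passed the level rule only through NS. Ugt1a7c, which glucuronidates phenols and planar compounds, read 5.13, 0.724 and 1.51 in WT NS and 14.4, 13.8 and 11.8 in WT 5dw. In Act it read 1.78, 4.37 and 3.47 in NS and 10.3 and 9.88 in 5dw, and in both genotypes every wound library stood above every NS library. It rose with log2FC 2.52 ± 0.45 (SE) in WT (adjusted p = 9.18e-04) and 1.58 ± 0.51 (SE) in Act (adjusted p = 0.0250). The WT value was 3.13 without WT NS 1, the highest of its group, and the Act call ended without Act NS 1 (adjusted p = 0.0684), Act 5dw 1 (adjusted p = 0.103) or Act 5dw 3 (adjusted p = 0.0994). Ugt1a1, the bilirubin glucuronosyltransferase, read 5.33, 6.34 and 7.87 in WT NS, 1.84, 7.69 and 3.07 in Act NS, 0.453, 0.592 and 0.823 in WT 5dw, with 0.745 and 1.54 in Act 5dw. Its difference was log2FC -2.64 ± 0.38 (SE) in WT and -1.36 ± 0.42 (SE) in Act, and the wound and NS values did not overlap in either genotype. Ugt1a6b, an enzyme for small phenols, read 9.29 to 23.4 in NS and 3.33 to 11.3 in 5dw, which overlap. Its log2FC was -0.87 in WT (adjusted p = 0.103; 0.0213 with a replicate block) and -1.16 in Act (adjusted p = 0.0685).

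Sult1a1, the main phenol sulfotransferase, read 4.26, 3.77 and 3.24 in WT NS and 6.24, 7.05 and 2.48 in Act NS. In wounds it read 0.167, 0.103 and 0.120 in WT, with 0.162 and 0.129 in Act, a difference of log2FC -2.75 ± 0.28 (SE) in WT and -3.05 ± 0.32 (SE) in Act. Sult1a1 passed the level rule only through NS, and this difference is not tested. Sult5a1, a sulfotransferase without a well known substrate, read 2.91 to 6.61 in NS and 1.46 to 2.15 in 5dw and fell, with log2FC -1.43 ± 0.23 (SE) in WT (adjusted p = 5.20e-04) and -0.97 ± 0.26 (SE) in Act (adjusted p = 0.0109), and the Act call ended without Act 5dw 3 (adjusted p = 0.0866) and with quantile normalization (adjusted p = 0.0940).

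**Figure D3:**
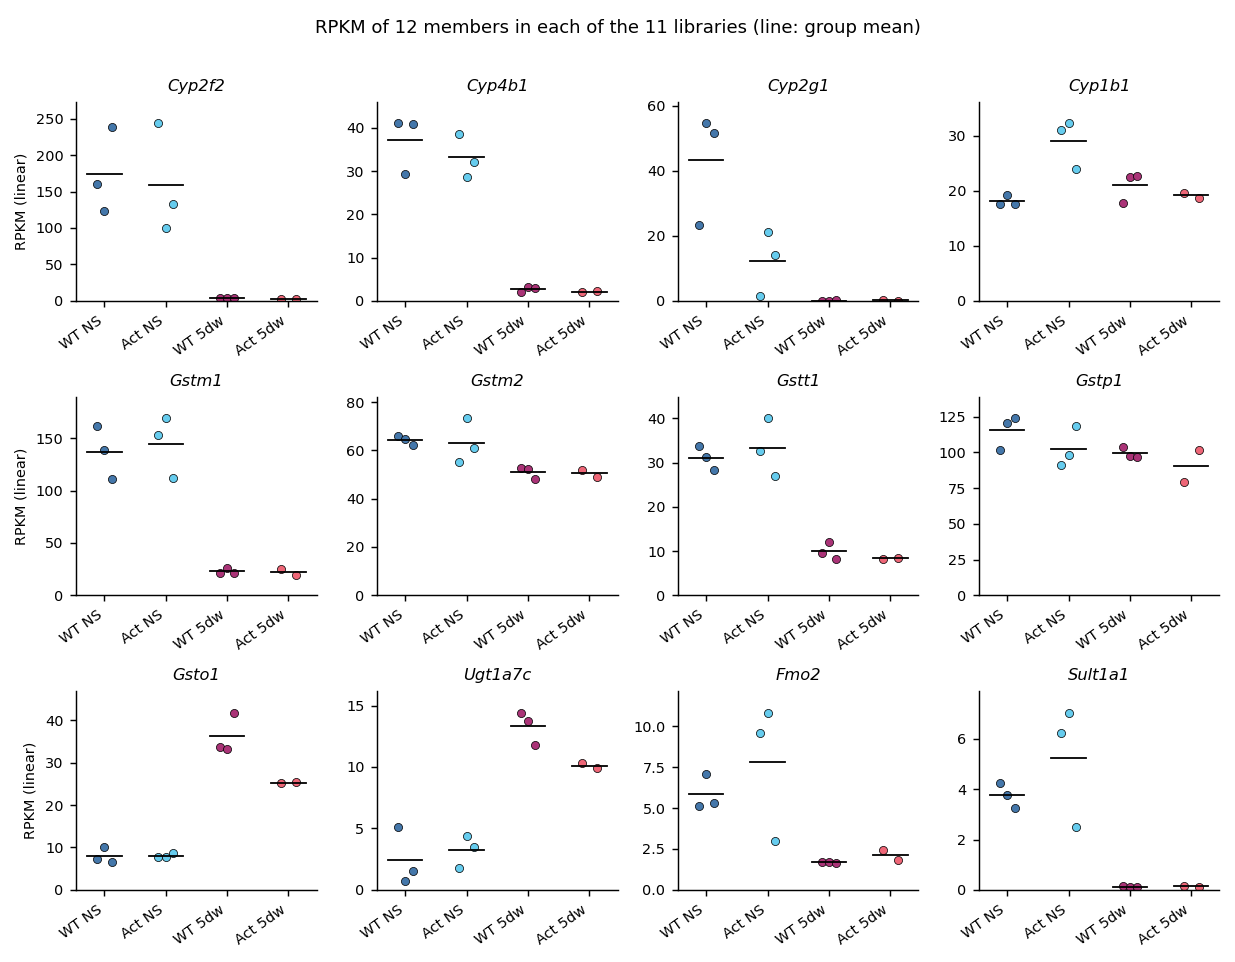
RPKM of 12 members (1 panel each, linear axes from 0) in each of the 11 libraries, with 1 point per library and a line at the group mean for WT NS, Act NS, WT 5dw and Act 5dw. Cyp2f2 reads at least 100.3 in NS and at most 4.28 in 5dw, Gstp1's NS and 5dw libraries overlap, and Gsto1 and Ugt1a7c are higher in every wound library than in any NS library.

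Some members that reached the level only in NS are known from epidermis and followed the keratinocyte markers across the NS libraries. The summed keratinocyte marker RPKM was 1029 and 1098 in the NS libraries numbered 1 and reached 4048 in Act NS 3. Sult2b1, the cholesterol sulfotransferase of differentiating epidermis, read 1.92, 6.09 and 6.79 in WT NS and 2.14, 7.79 and 10.9 in Act NS, lowest in both libraries numbered 1 and highest in Act NS 3. Cyp4f39, which hydroxylates very long fatty acids for the skin barrier, read 1.04, 2.48 and 3.35 and 0.810, 3.01 and 4.74 in the same libraries. Wound values were 0.444 to 1.59 for Sult2b1 and 0.0914 to 0.855 for Cyp4f39, each highest in WT 5dw 3, the wound library with the highest keratinocyte sum of 1397. The difference was log2FC -1.86 ± 0.55 (SE) in WT and -2.39 ± 0.61 (SE) in Act for Sult2b1, with -3.02 in Act without Act NS 1, and log2FC -1.64 ± 0.50 (SE) in WT and -2.12 ± 0.56 (SE) in Act for Cyp4f39. The part of the keratinocyte markers in these differences was not tested.

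Cyp2b19, an epoxygenase of keratinocytes, read 1.39, 2.55 and 1.89 in WT NS, 0.351, 1.75 and 2.13 in Act NS and at most 0.0804 in 5dw. Cyp2b10, a textbook target of the nuclear receptor Nr1i3, read 1.33 to 4.31 in NS and 0.143 to 0.537 in 5dw. The difference was log2FC -2.14 ± 0.36 (SE) in WT and -1.68 ± 0.40 (SE) in Act for Cyp2b19 and log2FC -1.66 ± 0.31 (SE) in WT and -2.15 ± 0.35 (SE) in Act for Cyp2b10. The alpha class transferases Gsta1 and Gsta2, whose sequences are largely shared with other genes, read 0.262 to 3.32 and 0.249 to 2.55 in NS, both highest in Act NS 3 and lowest in Act NS 1. The difference was log2FC -1.01 ± 0.47 (SE) in WT and -0.94 ± 0.52 (SE) in Act for Gsta1 and log2FC -1.68 ± 0.41 (SE) in WT and -1.42 ± 0.46 (SE) in Act for Gsta2. Gsta4, which conjugates products of lipid peroxidation, passed neither wound test and spread most in wounds, at 1.03, 2.13 and 7.06 in WT 5dw, where the third library also held the highest keratinocyte sum.

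**Figure D4:**
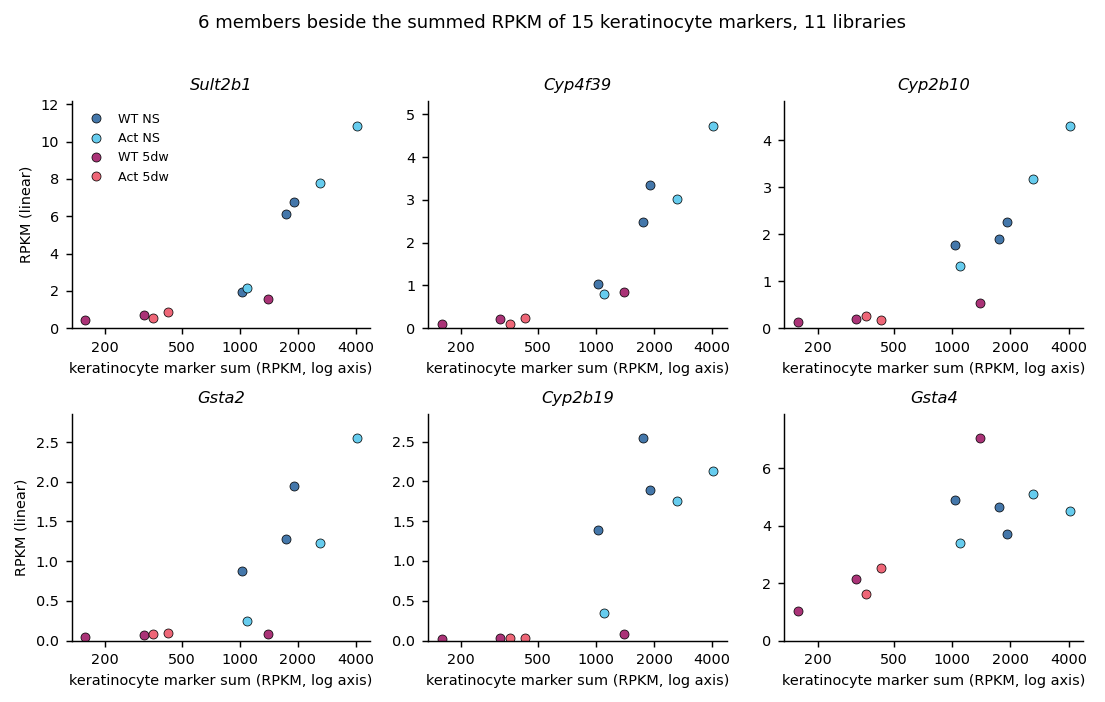
RPKM of 6 members (vertical axes) against the summed RPKM of 15 keratinocyte markers (horizontal axis, log scale) in each of the 11 libraries, coloured by group. Sult2b1 reads 10.9 in Act NS 3, where the marker sum is 4048, and 1.92 in WT NS 1, where it is 1029.

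Cyp2g1, a P450 best known from the olfactory mucosa, passed the level rule only through NS, where its values spread broadly. Its RPKM was 23.4, 54.5 and 51.5 in WT NS and 1.32, 21.2 and 14.2 in Act NS, with 68 reads behind the lowest of these and 3285 behind the most deeply covered. In wounds 0 to 7 reads remained, at 0.0352, 0 and 0.0721 in WT, with 0.159 and 0.0182 in Act. The difference was log2FC -6.26 ± 0.72 (SE) in WT and -3.84 ± 0.81 (SE) in Act, in part set by the pseudocount of 0.5 because the wound values lie below it. The Act value was -4.93 without Act NS 1, -3.15 without Act NS 2 and -6.99 with voom on recovered reads. The other members read mainly in NS were Cyp2j9, a relative of Cyp2j6, Cyp3a13, of the family of the main hepatic drug oxidases, and Cyp2c44, an arachidonic acid epoxygenase. Cyp2j9 read 2.92 to 5.36 in NS and 0.888 to 1.02 in 5dw, and differed by log2FC -1.51 ± 0.14 (SE) in WT and -1.81 ± 0.16 (SE) in Act. Cyp3a13 read 1.03 to 2.08 and 0 to 0.0961, and differed by log2FC -1.57 ± 0.19 (SE) in WT and -1.92 ± 0.21 (SE) in Act. Cyp2c44 read 0.465 to 1.204 and 0.0394 to 0.273, with a log2FC of -1.25 in WT and -0.98 in Act.

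Between genotypes no member was called in NS, in 5dw or in the interaction of wounding with genotype, where 0.0167%, 0.0334% and 0% of all genes tested were called by limma. At an unadjusted p under 0.05, 3 of the 42 members were found in NS and 2 in 5dw, beside 6.88% and 3.22% of all genes, and 3 of the 27 members at the level in both tissues in the interaction, beside 3.14% of the 9878 genes. These counts rested on single libraries, as the count in NS became 7 without Act NS 3, and the count in 5dw became 0 without WT 5dw 3 and 1 without WT 5dw 2, Act 5dw 1 or Act 5dw 3. The count in the interaction became 1, Cyp1b1, without WT 5dw 1, WT 5dw 3, Act 5dw 1 or Act 5dw 3. The share of all genes at that p is not given for the fits without 1 library, so these counts cannot tell a change of the members from a general one. With voom weights on reads recovered from the RPKM values, 0 members were called in each of these 3 comparisons as well. Cyp1b1 ranked first of the members in NS, at 31.02, 32.3 and 23.9 in Act against 17.7, 19.3 and 17.5 in WT, so that every Act library stood above every WT library (log2FC 0.65 ± 0.14 (SE), adjusted p = 0.558; limma). In 5dw its levels overlapped, at 19.6 and 18.7 in Act against 17.8, 22.4 and 22.6 in WT, and the interaction was log2FC -0.77 ± 0.21 (SE), adjusted p = 0.808 by limma. Cyp2g1 was lower in each Act NS library than in each WT NS library (log2FC -2.29 ± 0.72 (SE), adjusted p = 0.679; limma). Its difference in NS was -1.196 without Act NS 1 and -2.98 without Act NS 2, and without both NS libraries numbered 1 it was -1.58 with an adjusted p of 0.0325 by limma. Sebaceous gland markers moved with it in part, as 8 of 8 had their lowest NS value in Act NS 1. Only 3 of 8 were lower in every Act NS library than in every WT NS library. Among these 3, Far2 read 2.87, 6.76 and 6.18 in WT NS and 0.581, 2.65 and 1.91 in Act NS. The others did not separate the genotypes in this way, and Krt79 read 48.4, 72.1 and 78.4 in WT NS and 41.7, 101.4 and 184.6 in Act NS. The sum of the 8 was 64.6 to 109.4 in WT NS and 47.7, 121.1 and 198.5 in Act NS. The part of these markers in the Cyp2g1 difference was not tested. Cyp2j9 was the third in NS (log2FC 0.35 ± 0.14 (SE), adjusted p = 0.688; limma).

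In wounds, Gsto1 read 25.2 and 25.3 in Act and 33.7, 33.2 and 41.8 in WT, with no overlap (log2FC -0.50 ± 0.17 (SE), adjusted p = 1; limma). Gstm4 read 3.94 and 4.30 in Act and 3.28, 3.21 and 3.07 in WT, also without overlap (log2FC 0.33 ± 0.14 (SE), adjusted p = 1; limma). With 2 Act wound libraries, neither difference passed the adjustment over all genes. For the 4 members with the highest levels in NS, the intervals of the genotype difference contained 0 in both tissues. In 5dw, the 95% interval of Act against WT on the log2 scale was -1.51 to 0.08 for Cyp2f2, -0.53 to 0.43 for Gstm1, -0.52 to 0.21 for Gstp1 and -0.33 to 0.30 for Gstm2. In NS it was -0.89 to 0.53 for Cyp2f2, -0.36 to 0.50 for Gstm1, -0.50 to 0.15 for Gstp1 and -0.31 to 0.25 for Gstm2. The unadjusted intervals of Cyp1b1 in NS (0.34 to 0.97) and Gsto1 in 5dw (-0.89 to -0.12) did not contain 0.

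The rest of the pathway was read from lists of genes that are no members, and no listed gene was called between genotypes in either tissue. Counts are over the listed genes at 1 RPKM or more in 2 libraries of each tissue. Among the 9878 such genes 8.60% rose and 45.1% fell in WT and 8.47% and 32.5% in Act, or 23.9% and 16.8% and 21.1% and 15.6% with median-ratio scaling, and counts near these shares say nothing particular to a list. Of 9 receptors and regulators, 4 fell and none rose in both WT and Act, and with median-ratio scaling 3 fell in each and 1 rose in WT. Ahr was among them, at -1.87 ± 0.19 (SE) in WT and -1.88 ± 0.21 (SE) in Act, as was Rxra, the partner of the nuclear receptors, at -0.90 and -1.04. Of 21 electron donors and other phase I enzymes, 15 fell in WT and 14 in Act and 1 rose in each, and with median-ratio scaling 12 and 10 fell and 3 rose in each. The reductase Por, which serves every microsomal P450, fell, at -1.33 ± 0.16 (SE) in WT and -1.35 ± 0.18 (SE) in Act. The aldo-keto reductase Akr1b8 rose by 1.25 and 1.51.

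Of 9 genes of cosubstrate synthesis, 1 rose and 3 fell in WT and 2 rose and 2 fell in Act, but with median-ratio scaling 5 rose and 0 fell in WT and 4 rose and 1 fell in Act. Gsr, which regenerates glutathione, rose by 0.92 ± 0.18 (SE) in WT and 0.74 ± 0.20 (SE) in Act. Of 6 further genes of the glutathione transferase group, 3 fell and none rose in both genotypes, and with median-ratio scaling 0 fell in WT and 2 in Act and 2 rose in each. Of 4 other conjugating enzymes, 1 fell and none rose in both genotypes, and with median-ratio scaling none fell and 1 rose in WT. Of 6 efflux transporters, 3 fell in WT and 2 in Act and none rose, and with median-ratio scaling 2 and 1 fell. Listed genes at that level in 1 tissue alone are given as RPKM only. Aldh3a1, an aldehyde dehydrogenase, read 21.8 to 48.8 in NS and 0.106 to 0.401 in 5dw, and the methyltransferase Inmt 29.3 to 90.7 and 0.488 to 1.13. Abcc3, an exporter of glucuronides, read 0.161 to 0.372 in NS and 1.40 to 2.07 in 5dw.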

How the data were processed

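Poly-A RNA of sorted fibroblasts was sequenced in 11 libraries (stranded, 100 bp). The authors mapped reads to GRCm38 in CLC Genomics Workbench 12 and deposited RPKM per gene. Their edgeR exact test, which works on counts, was not rerun, nor was it run on the reads recovered from the RPKM values. Values were taken as log2(RPKM + 0.5), and limma 3.58.1 (R 4.3.3) was fitted with a trend and 1 mean per group over all 11 libraries, on the 11979 genes at RPKM 1 or more in 2 libraries, with Benjamini-Hochberg adjustment over these genes. Whole reads were recovered for 100% of tested genes (tolerance 0.03) and used in limma-voom as an alternative. Other alternatives were median-ratio and quantile scaling, pseudocounts of 0.1 and 1, no filter or 5 RPKM, no trend, array weights, a replicate block, only the groups compared, and leaving out libraries. Same-numbered libraries deviated together between WT NS and Act NS (r 0.33 to 0.55) and between WT NS and WT 5dw (r 0.11 to 0.19), 3 pairs each. So did those of Act NS and WT 5dw (r 0.20 to 0.26, 3 pairs), which is no comparison tested here. This did not hold in both pairs of the comparisons with Act 5dw (lowest r 0.0187 and -0.0777). The link between same-numbered libraries of WT NS, Act NS and WT 5dw is thus a hint from the data and not from the labels. Libraries of a group differed by more than counting noise. Since each library pools 3 animals, p-values measure the spread between pools. Marker, pathway and member lists and the rule for naming members (the 3 highest of each family, called members by size of change, members at an unadjusted p under 0.05 between genotypes, and those next to the level threshold) were chosen with earlier results of these data known. Scripts were tested on simulated data.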

Additional observations from a re-analysis of the deposited data

Results flagged for a closer look

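For 3 of the 27 members at the level in both tissues, the wound change differed between genotypes at an unadjusted p under 0.05 in the interaction term of limma, given as the log2FC in Act minus that in WT, and none passed the adjustment over all 11979 genes. Cyp1b1 had a difference of -0.77 (adjusted p = 0.808), with a log2FC of 0.20 in WT and -0.58 in Act. The other 2 had an adjusted p of 0.999. Gsto1 had a positive log2FC in both genotypes and differed by -0.52, and Gstm4 differed by 0.41, from -0.62 to -0.21. Without WT 5dw 1, WT 5dw 3, Act 5dw 1 or Act 5dw 3, Cyp1b1 was the 1 member left at that p. Groups of 3 or fewer libraries are too small for a test of single outlying libraries.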

How the results depend on the processing

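The counts of called members moved with the scaling and with the set of members tested. They include 14 members that passed the level rule only through NS and 1 only through 5dw, so they describe the processing and test no wound change. Members higher in 5dw numbered 3 in WT and became 7 with median-ratio and 6 with quantile scaling, and 3 in Act, which became 5 under each. Over the 11979 genes tested, those higher increased as well, from 1132 to 2684 and 2440 in WT and from 1083 to 2384 and 2412 in Act. Members lower numbered 29 in WT and 28 in Act, and became 17 and 18 with a filter of 5 RPKM, under which fewer members are tested, and 17 in Act with quantile scaling. Over all genes tested, those lower in Act went from 4376 to 2066 with quantile scaling. Leaving out 1 library gave 3 to 3 higher and 26 to 31 lower in WT, 1 to 3 higher and 19 to 29 lower in Act, and 0 to 0 between genotypes or in the interaction, and the 1 in Act came without Act 5dw 1, where the lone Act 5dw library is assumed to vary like the other groups. Gstm2 turned from -0.33 to 0.13 in WT with median-ratio scaling. Without both NS libraries numbered 1, 1 member (Cyp2g1) was called between Act NS and WT NS. With a replicate block, the members lower were 32 in WT and 29 in Act, those higher 3 in each and those differing between genotypes 0. Among the members at the level in both tissues, the block added Fmo1 and Ugt1a6b in WT and Fmo1 in Act and changed no other call. The further addition in WT, Gsta1, passed the level rule only through NS, so its gain is not read as a test. Limma-voom on recovered reads called 1177 genes higher and 6380 lower in WT and 1005 and 5163 in Act, with 3 and 30 and 3 and 28 members. Of the 18 members called in WT among those at the level in both tissues, 11 kept direction and call under every alternative that left out no single library and 17 under every fit that left out 1, against 8 and 8 of 17 in Act. At an unadjusted p under 0.05, array weights gave 6 members between genotypes in NS, a fit of only the 2 groups compared gave 5 in 5dw, and no trend of the spread gave 1 in the interaction. The share of all genes at that p is not given for these fits, so the counts cannot tell a change of the members from a general one. Most wound values of the members read only in NS lie below the pseudocount, so their log2FC understate the change.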
